A study of Homo sapiens with 6 samples.

Results

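The FOS and JUN gene families encode the subunits of the transcription factor AP-1, and their transcripts were followed in EndoC-βH1, a line of human β cells derived from fetal pancreas and immortalised with a viral T antigen and telomerase. The families were taken as 7 named genes out of 60671 gene identifiers in the count files, 4 of the FOS family (FOS, FOSB, FOSL1 and FOSL2) and 3 of the JUN family (JUN, JUNB and JUND), matched by symbol. All 3 vehicle samples received DMSO, and all 3 treated samples received 1 µM AZD7762, a competitive inhibitor of the checkpoint kinases CHEK1 and CHEK2. Cells of both groups were wild type and were starved for 1 h in 0.5 mM glucose and then held for 1 h in glucose of a low (0.5 mM) or a high (20 mM) concentration, with the compound or its vehicle present in both steps, and the labels do not say which of these glucose concentrations a given library had. The set was chosen with the difference between these groups already known, so the values of the members under AZD7762 are given as a description, and no p is given for a member.

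Fos and Jun proteins join through a leucine zipper and bind DNA with the adjoining basic region. Jun proteins pair with each other or with Fos proteins, whereas Fos proteins need a partner of another family. FOS, FOSB, JUN and JUNB are immediate early genes, which are transcribed within minutes of a stimulus without new protein synthesis, and in β cells membrane depolarisation, calcium entry and cyclic AMP are known inducers. FOSL1 and FOSL2 encode Fos-related antigens that lack the strong transactivation domain of FOS, and JUND is expressed at a steady level in many tissues.

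The libraries held between 20486391 and 29402440 counts with DMSO and between 21441444 and 25494187 with AZD7762. Levels are given as CPM, the counts of a gene relative to the scaled total of its library. The detection floor was set at 3 counts, which is at most 0.146 CPM and covers counting error only. Mitochondrial genes held 1.57%, 2.13% and 2.12% of the counts in DMSO replicates 1 to 3 and 2.26%, 2.28% and 2.63% in AZD7762 replicates 1 to 3, so that every treated library lay above every vehicle library, and the part of this in the results was not tested. All 14 β cell markers examined were detected and passed the filter on low counts, with INS between 1014 and 1661 normalized CPM and IAPP between 17.3 and 21.1 over the 6 libraries. Of these 14, edgeR called 1, MAFA (7.14%), against 0.708% of all genes tested. MAFA, PDX1 and NKX6-1 lay higher in every treated library, as did 6.79% of all genes. NEUROD1 and SLC30A8 lay lower in every treated library, as did 8.25%. Of 16 markers of other pancreatic and stromal cells, 8 were tested and 0 were called by edgeR, against 0.708% of all genes tested. Among these markers, however, 3 had an unadjusted p under 0.05, the likelihood ratio test called 1 and DESeq2 called 0. Their summed level lay between 281 and 314 CPM with DMSO and between 332 and 361 with AZD7762, SST being the most abundant. SST, the acinar marker CPA1 (20.9 to 22.6 CPM with DMSO and 24.7 to 27.5 with AZD7762) and the stromal marker COL1A2 (2.74 to 3.23 and 3.89 to 4.64 CPM) lay higher in every treated library, whereas KRT19 and COL1A1, at 23.8 to 29.6 and 10.1 to 15.8 CPM over the 6 libraries, overlapped between the groups. HHEX, a marker of delta cells as SST is, overlapped too, at 16.6 to 22.3 CPM with DMSO and 16.2 to 18.8 with AZD7762. Its log2 fold change was -0.19. PRSS1 was at 0 in every library, and PTPRC, VWF and CD68 were near 0. The part of these cell markers in the results on FOS and JUN genes was not tested. In bulk samples, fewer cells of a type and less RNA per cell cannot be told apart.

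With AZD7762, FOS, FOSL2 and JUNB rose, JUN fell, JUND showed a log2 fold change near 0, and FOSB and FOSL1 overlapped between the groups. Of the 7 genes, 6 passed edgeR's filter on low counts and FOSL1 did not. Over all 17649 genes tested, edgeR's quasi-likelihood test called 125 at an adjusted p under 0.05, which is 0.708%, with 0.357% called higher and 0.351% called lower with AZD7762. Of the 6 members tested, 4 were called, 3 higher and 1 lower, a count that describes these genes and supports nothing, since the families were chosen on this comparison. In 4 of the 6 members the groups did not overlap, against 15% of all genes tested. The AZD7762 samples all lay higher in 3 members, against 6.79% of all genes, and all lower in 1, against 8.25%. The median log2 fold change was 1.86 over the 3 tested FOS family genes and 0.0152 over the 3 JUN family genes, against 0.00757 over all genes tested.

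FOS (ENSG00000170345), the founding member of its family, lies on the plus strand of chromosome 14 of GRCh37 from 75745529 to 75748933. It had 12.7, 11.1 and 9.19 normalized CPM in DMSO replicates 1, 2 and 3, and 89.5, 81.1 and 82.0 in AZD7762 replicates 1, 2 and 3. Every treated sample lay far above every vehicle sample, and the treated samples differed little from each other. Its mean was 11.0 ± 1.76 CPM in the vehicle group and 84.2 ± 4.61 CPM in the treated group (SD, n = 3 each). The fitted log2 fold change was 2.92 (standard error 0.0994), a 7.58-fold rise. As raw counts these levels rest on 192 to 376 reads with DMSO and 1709 to 2254 with AZD7762.

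FOSL2 (ENSG00000075426, plus strand of chromosome 2, 28615315 to 28640184), which encodes the Fos-related antigen FRA2, was the other FOS family gene that rose. It had 3.14, 2.28 and 2.25 CPM in DMSO replicates 1 to 3, and 7.15, 12.1 and 9.13 CPM in AZD7762 replicates 1 to 3. The groups did not overlap, although the treated samples spread more widely than those of FOS. The fitted log2 fold change was 1.86 (standard error 0.202), a 3.64-fold rise.

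FOSB (ENSG00000125740, plus strand of chromosome 19, 45971253 to 45978437), an immediate early gene like FOS, did not pass the test. It had 7.98 CPM in DMSO replicate 1, against 2.64 and 2.49 in DMSO replicates 2 and 3, and 6.91, 7.97 and 7.12 with AZD7762. The treated samples lay close together, above DMSO replicates 2 and 3, whereas DMSO replicate 1 matched the highest of them. With all 6 samples the log2 fold change was 0.70 (standard error 0.328), and without DMSO replicate 1 it was 1.49 (standard error 0.150) and FOSB was called.

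Within the vehicle group, the level of FOSB in DMSO replicate 1 was 3.11-fold the mean of DMSO replicates 2 and 3. The same ratio was 1.39 for FOSL2 and 1.25 for FOS, and it was 0.944 for JUND, 0.916 for JUN and 0.848 for JUNB. Without DMSO replicate 1, the log2 fold change of FOS was 3.03 and that of FOSL2 was 2.04, and both were still called. The 13901 genes averaging 1 or more in log2 CPM over all 6 samples were ranked from the highest ratio of DMSO replicate 1 down. FOSB ranked 2, FOSL2 52 and FOS 189, whereas JUND, JUN and JUNB ranked 10327, 11363 and 12900. Besides FOSB, the first 5 ranks held ENSG00000276168 (3.61), NPAS4 (2.23), EGR3 (2.00) and EGR2 (1.82). NPAS4 had at most 0.541 CPM with DMSO, so only its treated samples brought it into this ranking. EGR2 had at most 2.60 CPM with DMSO. Among the genes so ranked, FOSB was not alone in lying high in DMSO replicate 1, and the cause was not tested.

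FOSL1 (ENSG00000175592, minus strand of chromosome 11, 65659520 to 65668044), which encodes FRA1, was close to the floor of detection. It had 7, 1 and 0 counts in DMSO replicates 1 to 3 and 2, 6 and 7 counts in AZD7762 replicates 1 to 3. The count of 0 allows a level of up to 0.146 CPM in that library. A difference between the groups was not detectable at this depth.

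JUNB (ENSG00000171223, plus strand of chromosome 19, 12902300 to 12904129), an immediate early gene like JUN, rose. It had 27.7, 20.4 and 45.0 CPM in DMSO replicates 1 to 3, and 91.1, 64.1 and 99.5 CPM in AZD7762 replicates 1 to 3. The lowest treated sample lay above the highest vehicle sample, although both groups were spread more widely than those of JUN or JUND. The log2 fold change was 1.47 (standard error 0.225), a 2.76-fold rise. Without DMSO replicate 1 it was 1.38 and without AZD7762 replicate 1 it was 1.40, and JUNB was then not called. Of its exon length, 14.2% overlaps HOOK2 on the opposite strand, a gene with between 265 and 374 counts per library, and whether reads were counted by strand is not stated.

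JUN (ENSG00000177606, minus strand of chromosome 1, 59242517 to 59249720), which encodes c-Jun, fell. It had 202, 203 and 239 CPM in DMSO replicates 1 to 3, and 160.2, 154 and 162 CPM in AZD7762 replicates 1 to 3. All treated samples lay below all vehicle samples, and their coefficient of variation was 2.56% against 9.79% with DMSO. The log2 fold change was -0.43 (standard error 0.0711), a fitted ratio of 0.741. Without AZD7762 replicate 1 (-0.45) or AZD7762 replicate 2 (-0.42) the size was similar and JUN was not called.

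JUND (ENSG00000130522, minus strand of chromosome 19, 18390504 to 18392432) was the most abundant member and did not pass the test. It had 220.5, 220.4 and 247 CPM in DMSO replicates 1 to 3, and 238, 229.7 and 227 CPM in AZD7762 replicates 1 to 3. The groups overlapped, and the log2 fold change was 0.0152 (standard error 0.0624). The sign of this small difference turned to -0.0205 with library totals in place of scaling factors and to -0.0482 with GC content and length trends removed.

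**Figure D1:**
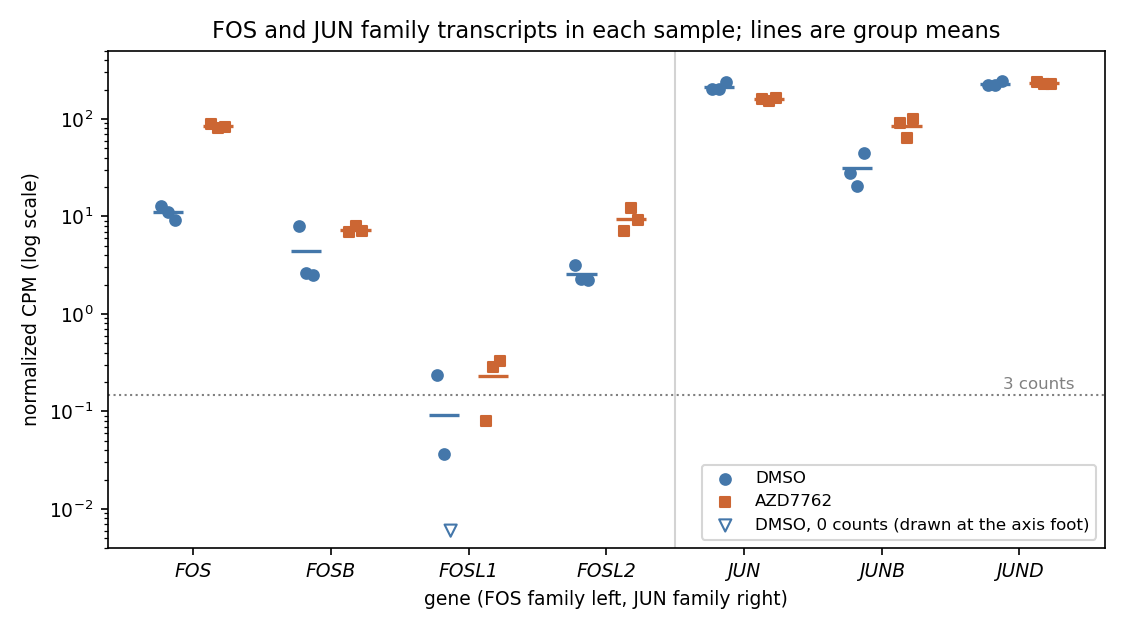
Normalized CPM (log axis) of the 7 genes in each of the 3 DMSO samples (blue circles) and 3 AZD7762 samples (orange squares), with short lines at the group means and a dotted line at the level of 3 counts in the smallest library. FOS, FOSL2 and JUNB lie higher and JUN lower in every AZD7762 sample, whereas DMSO replicate 1 of FOSB, at 7.98 CPM, lies among the treated samples.

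Leaving out each library in turn moved the members by different amounts, as the plot of refitted fold changes shows. FOS stayed between 2.82 and 3.03 and FOSL2 between 1.64 and 2.04 on the log2 scale, and both were called in each of the 6 fits. JUNB ranged from 1.23 to 1.82, and JUN from -0.49 to -0.35. With each library thinned to 20486391 counts, with GC content and length trends removed, and with DESeq2's Wald test, FOS, FOSL2, JUNB and JUN were called and FOSB and JUND were not.

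**Figure D2:**
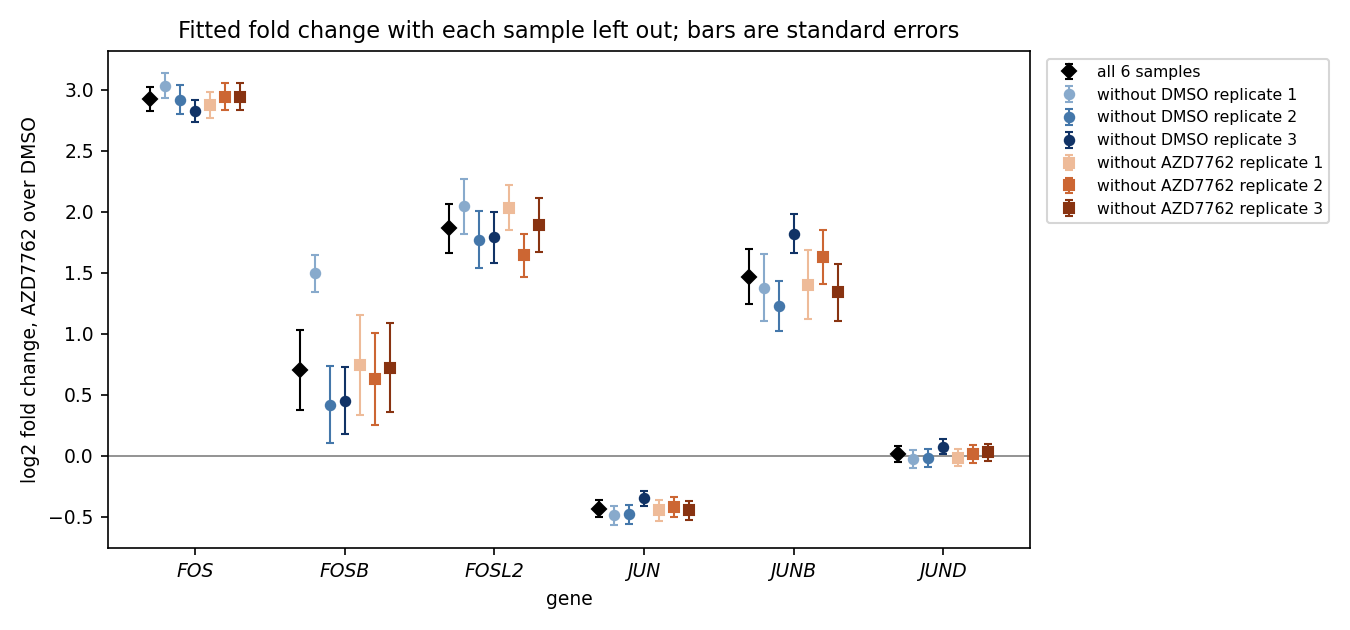
Log2 fold change of AZD7762 over DMSO, with its standard error, for the 6 tested members, fitted with all 6 samples (black diamonds) and without each sample in turn (blue circles for DMSO, orange squares for AZD7762). FOSB moves from 0.70 to 1.49 without DMSO replicate 1, whereas FOS stays between 2.82 and 3.03.

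Levels of different genes were compared per kilobase of exon length. In vehicle cells the JUN family made up nearly all of the AP-1 transcripts. JUND had 119 ± 7.90 CPM per kb (SD, n = 3), JUN 59.3 ± 5.81, JUNB 17.0 ± 6.90 and FOS 3.46 ± 0.554, and no sample of one of these genes overlapped a sample of the next. FOSB had 0.787 ± 0.563 CPM per kb and FOSL2 0.357 ± 0.0710. The samples of this pair came close without overlapping, with the lowest of FOSB at 0.448 and the highest of FOSL2 at 0.439. Their means did not differ beyond the spread of FOSB. FOSL1 was lowest at 0.0483 ± 0.0675. This order was the same without any 1 of the DMSO samples and with the longest transcript as the length.

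With AZD7762 the order of these levels changed in the middle and toward the bottom. JUND stayed first, at 120.1 ± 3.00 CPM per kb. JUNB, at 46.4 ± 10.1, then overlapped JUN, at 43.9 ± 1.12, and FOS followed at 26.4 ± 1.45. FOSL2 (1.32 ± 0.352) and FOSB (1.32 ± 0.102) overlapped as well, and FOSL1 had 0.122 ± 0.0704. This treated order was taken only per kilobase of exon length. By longest transcript, FOS has 2104 bases in place of 3186 and JUN 3257 in place of 3624, whereas JUNB has 1830 by both. With that length FOS and JUN would lie higher relative to JUNB.

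The contrast of FOS with JUN was clearest as a ratio within each sample. Per kilobase, JUN exceeded FOS 14.0-fold, 16.0-fold and 22.9-fold in DMSO replicates 1, 2 and 3, and 1.57-fold, 1.67-fold and 1.74-fold in AZD7762 replicates 1, 2 and 3. JUN exceeded JUNB 3.69-fold, 5.02-fold and 2.68-fold in the vehicle samples, against ratios of 0.888, 1.22 and 0.824 in the treated samples. Neither ratio overlapped between the groups. The size of each ratio depends on the length taken for each gene, but its change between the groups does not.

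As a share of the summed level of all 7 genes per kilobase, the FOS family took 3.13%, 2.32% and 1.64% in DMSO replicates 1 to 3, and 12.3%, 12.7% and 11.6% in AZD7762 replicates 1 to 3. JUN took 29.7% ± 0.470 in the vehicle group and 18.3% ± 0.535 in the treated group (SD, n = 3 each), and that of JUNB was 8.33% ± 2.56 and 19.3% ± 3.39. JUND held 59.6% ± 1.97 and 50.2% ± 2.45, although its own level overlapped between the groups. The summed level of the JUN family overlapped too, at 195 ± 20.4 and 210.3 ± 11.8 CPM per kb, whereas that of the FOS family went from 4.65 ± 1.21 to 29.2 ± 1.03.

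**Figure D3:**
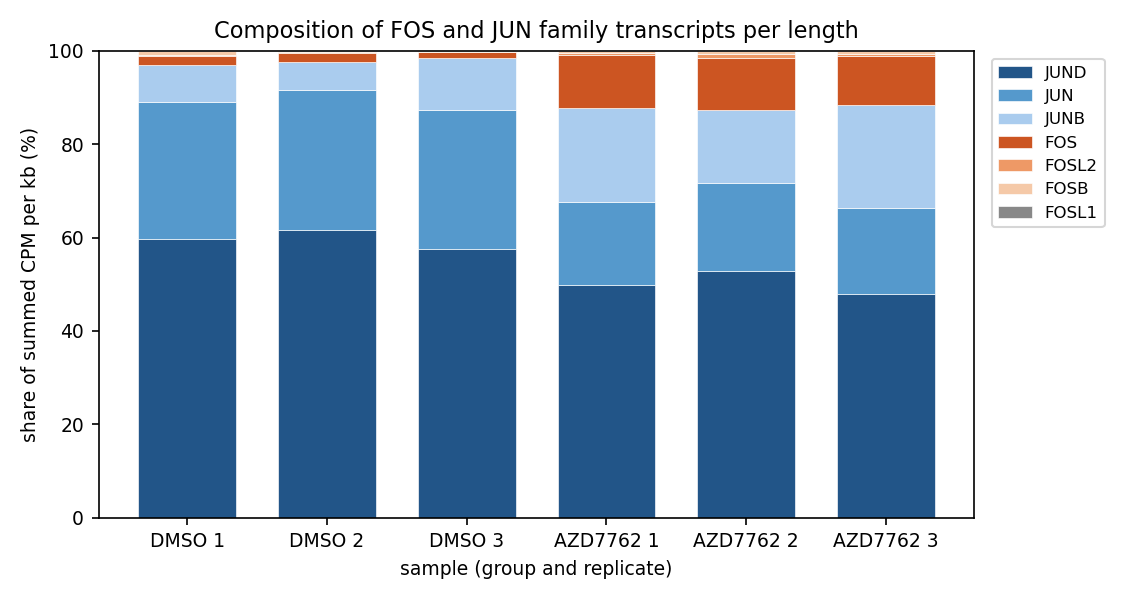
Share (%) of each gene in the summed CPM per kb of the 7 FOS and JUN family genes, 1 bar per sample, with the JUN family in blue and the FOS family in orange and grey. The FOS family takes between 1.64% and 3.13% in the DMSO samples and between 11.6% and 12.7% in the AZD7762 samples.

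The families also differ in exon number, which played no part in choosing them. In the canonical transcripts of the GENCODE annotation on GRCh37, the 4 FOS family genes each have 4 exons, as do 7.95% of the 13589 coding genes tested. All 3 JUN family genes have a single exon, as do 2.32% of those coding genes. The GC content of the exons did not separate the families, at 69.9% in JUND, 64.9% in JUNB and 55.0% in JUN, and 59.5% in FOSL1, 56.8% in FOSB, 53.6% in FOS and 53.4% in FOSL2, against a median of 47.9% over these coding genes.

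The proximal promoters are printed here because FOS, FOSL2 and JUNB moved together and JUN moved the other way. The sequences come from RefSeq on GRCh38.p14, where 6 of the 7 genes were matched, FOSL1 excepted, and each runs from 150 bases to 1 base before the annotated start, read 5′ to 3′ on the strand of the gene. Capitals mark TGACG or its complement CGTCA, the core of the cyclic AMP response element (CRE) to which CREB binds, and in JUN also TGACATCA, a variant of the AP-1 site.
FOS: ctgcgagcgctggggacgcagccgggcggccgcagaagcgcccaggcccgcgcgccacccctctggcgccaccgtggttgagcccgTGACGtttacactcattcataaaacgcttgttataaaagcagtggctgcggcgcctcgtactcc
FOSB: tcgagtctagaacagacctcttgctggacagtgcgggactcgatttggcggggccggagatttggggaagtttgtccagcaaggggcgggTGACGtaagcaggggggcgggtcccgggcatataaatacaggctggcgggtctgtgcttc
FOSL2: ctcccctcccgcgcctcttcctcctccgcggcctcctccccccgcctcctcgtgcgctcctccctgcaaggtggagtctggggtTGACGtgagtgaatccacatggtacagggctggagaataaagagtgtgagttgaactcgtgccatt
JUNB: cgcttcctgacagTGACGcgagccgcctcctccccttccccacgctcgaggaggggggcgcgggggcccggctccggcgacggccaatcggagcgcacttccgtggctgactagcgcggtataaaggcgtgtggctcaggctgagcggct
JUN: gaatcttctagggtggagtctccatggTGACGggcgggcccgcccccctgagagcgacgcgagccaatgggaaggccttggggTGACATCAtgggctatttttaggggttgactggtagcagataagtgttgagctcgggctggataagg
JUND: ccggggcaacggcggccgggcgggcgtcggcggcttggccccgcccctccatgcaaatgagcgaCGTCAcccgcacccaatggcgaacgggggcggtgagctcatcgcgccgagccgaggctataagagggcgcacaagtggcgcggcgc

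These stretches lie at chr14:75278678-75278827 (FOS, plus strand), chr19:45467846-45467995 (FOSB, plus strand), chr2:28392708-28392857 (FOSL2, plus strand), chr19:12791336-12791485 (JUNB, plus strand), chr1:58784048-58784197 (JUN, minus strand) and chr19:18281623-18281772 (JUND, minus strand). The motifs were searched on both strands in the 250 bases before the start. TGACG was found in 6 of the 6 promoters, against 21.2% of the 35116 promoters in the table. The windows of the 6 hold 62.0% to 74.8% GC, and the 35116 promoters were not matched to them for GC content. The longer TGACGT, which contains TGACG, was found in FOS, FOSB, FOSL2 and JUND, against 7.10% of all promoters, and the full element TGACGTCA in JUND, against 1.65%.

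In the 3 FOS family promoters, TGACGT began 60 to 66 bases before the start, at 64 in FOS, 60 in FOSB and 66 in FOSL2. In JUNB and JUN the core TGACG began at 137 and 123 bases before the start. TGACATCA was found in JUN, 67 bases before the start, and in 2.37% of all promoters. The AP-1 site TGANTCA was found in 0 of the 6 promoters and in 6.57% of all, and the CArG box, which SRF binds, in 0 of the 6 and in 1.16% of all, which says only that these letters are not in this window. TATAAA was found in FOS, FOSB and JUNB, against 10.7% of all promoters. These matches are a description of the sequence and not evidence of binding.

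The 3′ ends of the transcripts were examined because AU-rich elements, built from ATTTA pentamers, are known to shorten the life of FOS and other immediate early mRNAs. In its canonical transcript FOS has 5 pentamers in a 3′ untranslated region of 806 bases, or 6.20 per kb, against a median of 1.71 per kb over 13561 coding genes tested. JUNB has 4.0 per kb (2 pentamers in 500 bases), JUN 2.34, FOSL2 1.85 (9 in 4869 bases), FOSB 1.38, JUND 1.34 and FOSL1 1.19. The nonamer TTATTTATT, which contains the pentamer, was found in FOS and FOSL2, against 9.53% of these genes. A window of 30 bases with the most pentamers, shown in capitals and with T for U, is given for the 3 genes that rose, for JUN, which fell, and for JUND.
FOS: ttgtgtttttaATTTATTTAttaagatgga
FOSL2: aattgacATTTAttttattATTTAttttaa
JUNB: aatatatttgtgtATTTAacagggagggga
JUN: ttccagaaaggatATTTAagaaaatacaat
JUND: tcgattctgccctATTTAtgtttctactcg

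The elements of FOS overlap each other, those of FOSL2 stand apart by several bases, and the other 3 windows hold 1 pentamer each.

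Other basic leucine zipper (bZIP) factors that pair with Fos or Jun proteins or compete for their sites were examined as a list of 20, which had been written with earlier results of these data known, as were the lists that follow. Of these, 18 were tested and 3 were called (16.7%), against 0.708% of all genes tested. Of the 3, 1 was higher and 2 were lower, and the list had a median log2 fold change of -0.03. All 3 are Maf factors. MAFA, a large Maf that activates the insulin gene, had 15.2, 15.4 and 21.2 CPM in DMSO replicates 1 to 3 and 40.7, 36.0 and 44.5 CPM in AZD7762 replicates 1 to 3. Its groups did not overlap, and edgeR gave a log2 fold change of 1.24 at an adjusted p of 0.000133. MAFF and MAFG, small Mafs without a transactivation domain, had log2 fold changes of -1.35 (adjusted p = 0.000263, edgeR) and -0.42 (adjusted p = 0.00503, edgeR). Among the more abundant factors of the list per kilobase, ATF4 and NFE2L1 had log2 fold changes of -0.03 and 0.08 that did not pass the test. Of the 18 tested, 3 lay higher in every treated library, NFE2L1 among them, and 4 lay lower. Over all genes tested these shares were 6.79% and 8.25%. Without the filter on low counts, 5 of the list were called.

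Kinases of the MAP kinase cascades that act on FOS and JUN were tested as 21 of 21 listed genes. edgeR's quasi-likelihood test called 0 of them, against 0.708% of all genes tested. With so low a share over all genes, 0 calls in a list of this size says little. The likelihood ratio test of edgeR and DESeq2 also called 0 of these kinases, and 2 had an unadjusted p under 0.05. Their log2 fold changes lay between -0.14 and 0.19. Among those with high levels per kilobase, MAPK3, which encodes ERK1, and RPS6KA3, which encodes the ribosomal kinase RSK2, had log2 fold changes of 0.15 and -0.03. In 2 of the 21, MAPK3 among them, every treated library lay higher, against 6.79% of all genes tested. In 2 others every treated library lay lower, against 8.25%.

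Factors known to act at FOS and JUN promoters were listed as 14 genes, of which 13 were tested. Of those, 2 were called (15.4%), both higher, against 0.708% of all genes tested. SRF, which recruits ELK factors and myocardin-related cofactors to immediate early genes, had 55.5, 41.5 and 65.0 CPM in DMSO replicates 1 to 3 and 91.6, 118 and 112 CPM in AZD7762 replicates 1 to 3. The groups did not overlap, and edgeR gave a log2 fold change of 0.99 with a standard error of 0.135 and an adjusted p of 0.00233. CREM, a CREB family gene that also encodes a repressor, had 9.57, 8.45 and 9.48 CPM with DMSO and 12.8, 14.5 and 12.0 CPM with the inhibitor. Here too the groups did not overlap, and edgeR gave 0.52 on the log2 scale at an adjusted p of 0.0424. Only 1 gene of the list was called without DMSO replicate 1, DMSO replicate 2, AZD7762 replicate 1 or AZD7762 replicate 2. ELK1, SP1 and MEF2A, the most abundant factors of the list per kilobase, had log2 fold changes of 0.10, -0.02 and -0.03, which did not pass the test. ELK1 lay higher in every treated library, as did 6.79% of all genes tested, whereas SP1 and MEF2A overlapped.

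Of 12 genes that control Fos and Jun proteins through ubiquitination, phosphorylation or repression, 12 were tested. By edgeR's quasi-likelihood test 0 of them were called, against 0.708% of all genes tested. Its likelihood ratio test and DESeq2 also called 0 of these 12, and 1 had an unadjusted p under 0.05. The most abundant per kilobase were HDAC3, a deacetylase, SIRT1, another, and ITCH, a ubiquitin ligase of Jun proteins, with log2 fold changes of 0.06, -0.15 and 0.01.

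Genes known as AP-1 targets in other cell types mostly had few counts in these cells. Of 32 listed, 14 passed the filter on low counts, and 10 had at most 3 counts in every library. Of the 14 tested, 0 were called by edgeR's quasi-likelihood test, against 0.708% of all genes tested, and 0 by its likelihood ratio test or DESeq2. Among these 14, 3 had an unadjusted p under 0.05, and the median log2 fold change was -0.06, with 7 above 0 and 7 below. EZR, a membrane linker protein, FTH1, a ferritin chain, and MT2A, a metallothionein, had the highest levels per kilobase. Their log2 fold changes were 0.03, 0.15 and -0.48, and their groups overlapped. Among the 14 tested, CD44 (0.14) lay higher in every treated library, as did 6.79% of all genes tested. VEGFA (-0.17) and PLAUR (-0.47) lay lower in every treated library, as did 8.25% of all genes.

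Heat shock genes, which respond to stress and handling, were set beside these lists. All 12 tested had a log2 fold change above 0, between 0.01 and 0.69 with a median of 0.10, against 52.4% of all genes tested above 0. HSPA1A (0.38) and HSPA1B (0.29) lay higher in every treated library, as did 6.79% of all genes, and the other heat shock genes overlapped. edgeR's quasi-likelihood test and DESeq2 called 0 of the 12, against 0.708% of all genes by the former. The likelihood ratio test of edgeR called 1 of the 12, and 4 had an unadjusted p under 0.05. Their summed level lay between 7251 and 7958 CPM with DMSO and between 7478 and 8344 CPM with AZD7762, and their part in the results on FOS and JUN genes was not tested.

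**Figure D4:**
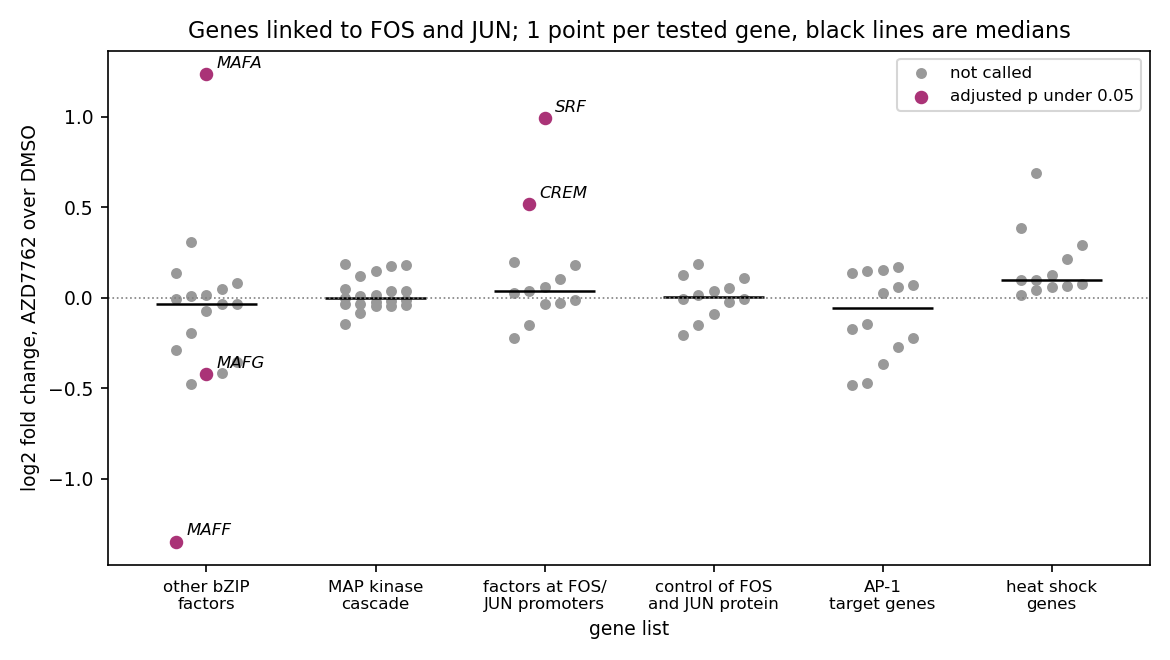
Log2 fold change of AZD7762 over DMSO for every tested gene of 6 lists linked to FOS and JUN, with the genes that edgeR called in purple and named, and black lines at the medians. MAFA, SRF and CREM lie above 0 and MAFF and MAFG below. The lists of kinases, protein control, target genes and heat shock genes hold no called gene, and 0.708% of all genes tested were called.

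Genes with profiles most like those of FOS, JUNB and JUN were found by the root mean square difference of log2 normalized CPM over the 6 samples, each profile centred on its own mean, among 13895 other genes. Closest to FOS were BTG2, an antiproliferative gene (difference 0.263), NR4A1, an orphan nuclear receptor (0.332), and RGS2, a regulator of G protein signalling (0.354), with log2 fold changes of 2.50, 3.5 and 2.33. Closest to JUNB were MAFA (0.264), ARC, a gene of neuronal activity (0.269), and ZFP36, whose product binds AU-rich elements (0.321), with log2 fold changes of 1.24, 1.39 and 1.59. Closest to JUN were MAFG (0.0382), SHOX2, a homeobox gene (0.0491), and C11orf21 (0.0518), with log2 fold changes of -0.42, -0.48 and -0.39. Of these 9 genes, C11orf21 was the 1 that was not called. Since these genes were picked for their likeness in the same 6 samples, it is a description.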

How the data were processed

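RNA-seq was performed on polyadenylated RNA of 6 EndoC-βH1 samples, 3 with DMSO and 3 with AZD7762, sequenced as paired reads of 51 bases, and groups were taken from the sample titles. Per the labels and the methods of the study, the authors checked reads with FastQC 0.10.1, trimmed them with cutadapt 1.18, used GRCh37 as the genome and obtained gene counts from HTSeq-count. The aligner, annotation release and strand setting are not given in the sources used here, and either of a pair of library kits, 1 of them stranded, was used. The deposited values are raw counts per gene, without normalization.

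The members and gene lists were chosen with earlier results of these data known. The labels do not say that replicates came from separate cultures, so errors and p-values measure only the spread between these samples. Replicates of a group differed by more than sampling noise (chi-square per gene between 4.51 and 8.62).

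The analysis used edgeR 4.0.16 under R 4.3.3, with filterByExpr, TMM factors (0.983 to 1.02) and quasi-likelihood tests of treatment, without covariates. P-values were two-sided and adjusted by Benjamini-Hochberg over 17649 genes, with a threshold of 0.05. Normalized CPM are counts over the scaled library total. Standard errors are the log2 fold change over the square root of F. DESeq2 1.42.0 was an alternative. Other alternatives were other scaling, filters and tests, thinned libraries, removal of GC content and length trends, a term for replicate number, and leaving out each sample. The test was tried on simulated counts, where it recovered 93.3% of the changed genes among 17649 and called 12 unchanged genes.

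Symbols, positions and exon lengths came from GENCODE on GRCh37, which matched 58646 of 60671 identifiers. In the files, neighbouring identifiers ran against the GRCh37 order in 474 of 50251 pairs and against the GRCh38 order in 232. The counts do not depend on this, but the release the authors counted on may carry GRCh38 models.

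The genes named are all members, in each pathway list every called gene and the 3 with the highest DMSO level per kilobase, the 3 profiles closest to FOS, JUNB and JUN, and INS and IAPP, and others are named after their values were seen. A few genes that this rule selects are not reported here. Whether replicate numbers pair the samples is not settled by the values. Deviations of same-numbered samples from their group means correlated at 0.0533, 0.124 and 0.210. Those of differently numbered samples correlated between -0.253 and 0.175.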

Additional observations from a re-analysis of the deposited data

How the results depend on the processing

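FOS and FOSL2 kept their direction and their call under all 17 alternatives. Against 125 genes called over all genes, 330 were called without a filter on low counts, 267 with the likelihood ratio test and 224 with GC content and length trends removed, and from 77 to 168 without 1 sample. FOSB (0.70) was called without the filter, also at 0.70, and without DMSO replicate 1, with a range of 0.42 to 1.49 over the fits without 1 sample. In such fits JUNB lay between 1.23 and 1.82, JUN between -0.49 and -0.35 and JUND between -0.0257 and 0.0737, and between 2 and 4 members were called. JUND turned to -0.0205 with library totals alone and -0.0482 with GC content and length trends removed. The cause was not tested.

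The replicate number as a block gave 378 calls over all genes, 267 with thinned libraries as well and 579 with trends removed as well, and JUND was -0.0457 in the last of these. Same-numbered samples did not correlate above 0.1 in each pair, and DMSO replicate 1 correlated best with AZD7762 replicate 2. DMSO replicates 2 and 3 correlated best with the AZD7762 sample of the same number. With the block the standard errors of JUNB and JUN were 0.0870 and 0.0491, against 0.225 and 0.0711 without it. No member changed its call under the replicate block. The block gave 2 calls among AP-1 targets, 1 among heat shock genes, 2 among β cell markers and 1 among other cell markers, the same with thinned libraries, and 2, 3, 2 and 2 with trends removed, where the bZIP list had 5.

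Without the filter, calls were 5 in the bZIP list, 1 in AP-1 targets and 2 each in heat shock genes, β cell markers and other cell markers. The likelihood ratio test called 1 heat shock gene, 2 β cell markers and 1 other cell marker, DESeq2 2 β cell markers, and trends removed 1 other cell marker. The list of promoter factors held 1 call with library totals, at least 10 counts in every sample or thinned libraries, and 1 to 2 without 1 sample, and heat shock genes 0 to 2. With AZD7762 the FOS family share was higher by 9.84 percentage points per kb of exon union, by 13.5 with the longest transcript and by 13.9 without length division. FOSL1 was fitted only without the filter, at 1.09 (standard error 0.712), and was not called. FOSL1 and 18 of the 32 AP-1 targets had too few counts to be tested.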
